A study of Mus musculus with 19 samples.

Results

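A set of 28 mouse transcripts was described that collected the most sequence tags in the background libraries of an FMRP CLIP experiment. In CLIP, ultraviolet light links a protein to RNA in contact with it, the protein is purified, and the attached RNA is read as short tags. The background libraries are called noCre in their titles, and the members were the transcripts with at least 10 tags summed over the 3 noCre libraries. Transcripts of the mitochondrial genome and 5 other named transcripts were left out by their identifiers, which removed 4 transcripts that had reached 10 tags, 2 of them mitochondrial. The members were 28 of 49932 transcripts listed in any of the 19 libraries, and 28 of 3612 listed in any noCre library. The members were thus chosen by their measured noCre tag counts, and their noCre values are a description and were not tested.

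FMRP, the protein missing in fragile X syndrome, binds a large group of brain messenger RNAs, is found with ribosomes, and is known for holding back their translation. In the cTag design, FMRP made from its own gene gains a tag in cells with Cre recombinase, so that purification through the tag draws on those cells. The Camk2a promoter that drives Cre is active in excitatory forebrain neurons. Tissue without Cre should hold no tagged protein, and RNA recovered from it is the background of the purification. Where the noCre tags came from was not tested here.

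All libraries came from dissected CA1 of acute mouse hippocampal slices and carry the genotype label Camk2a-Cre x Fmr1 cTag. The Cre-positive libraries had received AAV-ChR2, a viral vector for the light-gated channel channelrhodopsin-2, or AAV-Control, and were made 30 min or 5 min after activation, with 4 libraries in each of these 4 groups. They are called opto and control here. The 3 noCre libraries share the genotype and cell type labels of the Cre-positive ones and were taken as noCre from their title and treatment, and their labels give no time and no virus. The age of the animals was not given in the sources used here, nor was whether replicates came from separate animals, so p-values measure the spread between these libraries, which may be technical. The 5 min libraries carry a label of their own that marks their files as added, so that time and deposit cannot be told apart.

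The deposited values were whole counts of tags per transcript. Totals were 887, 34 and 5557 tags in noCre replicates 1, 2 and 3. They ran from 81588 to 192471 in the 30 min controls, 20456 to 121972 in 30 min opto, 40173 to 341445 in the 5 min controls and 84614 to 256727 in 5 min opto. Since noCre replicate 3 held 85.8% of all noCre tags, the membership follows this library: it held 92.5% of the 918 noCre tags on the members. The files give Ensembl transcript identifiers without gene names, and the gene table used alongside matched 0 of them. The members are therefore given by identifier, the tissue markers could not be checked, and gene positions and sequences were not used here.

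The members held 14.2% of pooled noCre tags. Their share was 67 of 887 tags in replicate 1 (7.55%, 95% Wilson interval 5.99 to 9.48), 2 of 34 in replicate 2 (5.88%, 1.63 to 19.1) and 849 of 5557 in replicate 3 (15.3%, 14.4 to 16.2). The higher share in replicate 3 was built into the choice, since most of the tags that chose the members are its tags. The intervals cover counting error and are not a test. Without replicate 3 the pooled noCre share of the members was 7.49%.

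In the Cre-positive libraries the same transcripts held between 4.78% and 8.21% of tags. In the 30 min controls their share was 6.36, 5.82, 7.32 and 6.02% in replicates 1 to 4 (mean 6.38% ± 0.663, SD, n = 4). In 30 min opto it was 7.94, 7.46, 7.66 and 8.21% (mean 7.82% ± 0.327, SD, n = 4), and these 4 libraries lay above all 4 of their controls. In the 5 min controls it was 4.78, 7.76, 6.12 and 5.96% (mean 6.16% ± 1.22, SD, n = 4). In 5 min opto it was 5.11, 6.44, 5.55 and 6.40% (mean 5.88% ± 0.655, SD, n = 4), within the range of the 5 min controls. So the 28 transcripts were a sizeable part of every FMRP CLIP library, not of noCre alone. A higher share in a library of bulk tissue cannot be told apart from fewer tags on the other transcripts, nor can fewer cells of a type be told apart from less RNA per cell.

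**Figure D1:**
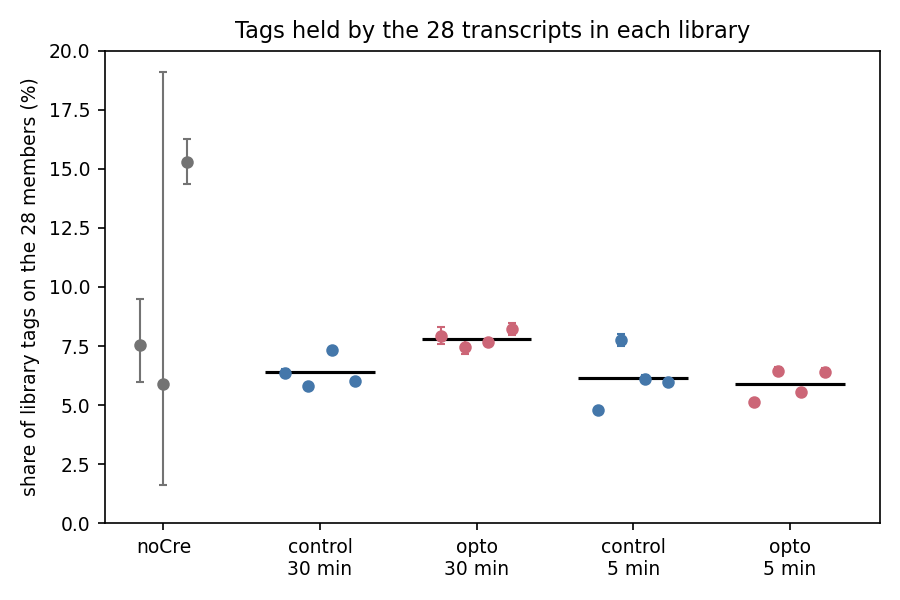
Share of each library's tags on the 28 transcripts, in percent. Each point is a library (replicates 1 onward from left to right), the error bars are 95% Wilson intervals for counting error, and the black lines are means of 4 libraries. The 30 min opto libraries sit between 7.46% and 8.21%, above the 30 min controls at 5.82% to 7.32%, and noCre replicate 3 is at 15.3%.

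Mitochondrial tags and depth also differed between these libraries. The mitochondrial transcripts left out of the set held 2.31% to 7.35% of tags in 30 min opto and 2.08% to 3.32% in the 30 min controls, 1.40% to 3.55% in the 5 min controls and 1.60% to 3.38% in 5 min opto. The 30 min opto group also held the 2 shallowest libraries. In the 5 min controls the shallowest library, replicate 2, had the highest member share, 7.76%, and the deepest, replicate 1, the lowest, 4.78%. The deepest library also had the lowest share in 5 min opto (replicate 1, 5.11%) and in the 30 min controls (replicate 2, 5.82%). In 5 min opto the shallower replicates 2 and 4 had 6.44% and 6.40%, and replicate 3 had 5.55%. In the 30 min controls the shallowest library, replicate 1, was not the highest. The lowest share in 30 min opto was that of replicate 2, the second shallowest. In 30 min opto the mitochondrial share was 7.35, 2.44, 2.31 and 4.13% in replicates 1 to 4, beside member shares of 7.94, 7.46, 7.66 and 8.21%. In the 30 min controls it was 3.32, 2.08, 2.51 and 2.42%, beside member shares of 6.36, 5.82, 7.32 and 6.02%. The part of mitochondrial RNA or of depth in the member share was not tested.

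Much of the members' noCre signal lay on a pair of transcripts. ENSMUST00000182010 had 17, 0 and 287 tags in noCre replicates 1 to 3, and ENSMUST00000192717 had 3, 0 and 143. Together they held 49.0% of the members' noCre tags and 6.95% of all pooled noCre tags. Their share was 2.25% of tags in replicate 1 and 7.74% in replicate 3. Levels below are CPM, the tags on a transcript per 1000000 tags of its library.

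ENSMUST00000182010 had the highest mean share of all transcripts in the Cre-positive libraries. It stood at 10982, 11041, 16402 and 12859 CPM in the 30 min controls and at 19945, 16125, 18652 and 24232 in 30 min opto. At 5 min it stood at 8016, 22602, 14817 and 14687 in the controls and at 8908, 16141, 12560 and 16699 in opto. The group means were 12821 ± 2541, 19739 ± 3390, 15031 ± 5964 and 13577 ± 3613 in this order (SD, n = 4). Opto and control libraries overlapped at both times, since the lowest 30 min opto library lay just under the highest 30 min control. In noCre it reached 19166 CPM in replicate 1 (interval 12000 to 30478) and 51647 in replicate 3 (46131 to 57781). The replicate 3 value was higher than all 16 Cre-positive libraries and the replicate 1 value was not.

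ENSMUST00000192717 had the fourth highest mean Cre-positive share and followed the first transcript closely. It had 0.475 to 0.598 tags for each tag of ENSMUST00000182010 in the 16 Cre-positive libraries, 0.498 in noCre replicate 3, and 3 against 17 in noCre replicate 1, a ratio of 0.176. It stood at 5417, 6593, 9434 and 7343 CPM in the 30 min controls and 9484, 8164, 11150 and 13854 in 30 min opto. At 5 min it stood at 4542, 12396, 8624 and 8497 in the controls and 5157, 9261, 7210 and 9537 in opto. The libraries high for one transcript were high for the other, above all 5 min control replicate 2 and 30 min opto replicate 4. Without this pair the other 26 members held 4.38% ± 0.403 of tags in the 30 min controls and 4.78% ± 0.298 in 30 min opto, and these ranges overlapped.

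The remaining members with the most noCre tags differed in where those tags lay. ENSMUST00000038863, with 47 noCre tags, had 3382 CPM in noCre replicate 1 and 7918 in replicate 3 (5904 to 10612). Its Cre-positive libraries stood at 2267, 1689, 2620 and 1761 in the 30 min controls, 3569, 3130, 2287 and 3859 in 30 min opto, 1245, 3211, 2156 and 2073 in the 5 min controls and 1406, 2707, 2008 and 2364 in 5 min opto. All 16 lay below the replicate 3 value. ENSMUST00000172812, with 33 noCre tags, stood at 4915, 4634, 6038 and 5162 in the 30 min controls and 6991, 1735, 4763 and 3787 in 30 min opto. At 5 min it stood at 1907, 4033, 2285 and 3294 in the controls and 2843, 6188, 1941 and 6725 in opto. Both opto groups were widely spread for this transcript, and its 5759 CPM in noCre replicate 3 (4082 to 8118) lay inside the Cre-positive range.

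ENSMUST00000099172 was the member with the third highest mean Cre-positive share, and its pooled noCre share lay below that mean. It stood at 9891, 7014, 10142 and 7653 CPM in the 30 min controls, 9337, 9797, 11773 and 9851 in 30 min opto, 7404, 9235, 8845 and 7937 in the 5 min controls and 7931, 7236, 8075 and 7079 in 5 min opto. In noCre it had 10, 1 and 33 tags, which are 11274 CPM in replicate 1 (6135 to 20628) and 5938 in replicate 3 (4232 to 8328). Its pooled noCre share was 0.781 times its mean Cre-positive share.

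ENSMUST00000083011 was the opposite case. All of its 32 noCre tags lay in replicate 3, at 5759 CPM (4082 to 8118), while the Cre-positive libraries held 1 to 22 tags each. These were 147, 114, 96.0 and 93.9 CPM in the 30 min controls, 48.9, 442, 90.2 and 192 in 30 min opto, 49.8, 124, 64.2 and 57.4 in the 5 min controls and 74.0, 30.5, 51.5 and 35.5 in 5 min opto. Its pooled noCre share was 46.2 times its mean Cre-positive share, the highest ratio among the 28. ENSMUST00000174924 followed at 12.6 times, with 22 noCre tags, all in replicate 3. ENSMUST00000175032 had the same count as ENSMUST00000174924 in every library and cannot be separated from it.

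The lowest ratios belonged to ENSMUST00000115781, at 0.575, and ENSMUST00000079362, at 0.604. These pooled ratios rest mostly on replicate 3. In replicate 1 the 2 transcripts stood at 9019 and 7892 CPM, above their highest Cre-positive libraries at 8224 and 6827. Their replicate 1 intervals reached below those libraries. ENSMUST00000115781 had 8 noCre tags in replicate 1 (9019 CPM, 4577 to 17696) and 10 in replicate 3 (1800, 978 to 3310). Its Cre-positive means were 5891 ± 1944 in the 30 min controls, 5945 ± 1811 in 30 min opto, 3913 ± 751 in the 5 min controls and 3592 ± 971 in 5 min opto (SD, n = 4). ENSMUST00000079362 had 0.697 to 0.846 tags for each tag of ENSMUST00000115781 in the 16 Cre-positive libraries. Their tag totals over all 19 libraries differed by 22.6%, and those of 3 further pairs by 1.53%, 2.22% and 4.60%. With the identical pair above, 10 of the 28 members came in 5 pairs whose Cre-positive shares followed each other at a correlation above 0.99, a description over 16 libraries. How the authors assigned tags shared between transcripts was not given in the sources used here, so values within a pair are uncertain and are not independent.

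The 28 members separated by whether noCre replicate 1 held a tag on them, a division made after the values were seen and given as a description. Tags in replicate 1 were found on 12 members, and these were abundant in CLIP: they ranked 1 to 53 by mean Cre-positive share, at 1254 to 15292 CPM. Their ratio of pooled noCre to mean Cre-positive share ran from 0.575 to 3.07, with a median of 1.06. The pooled share follows replicate 3, and the 2 libraries did not always match. With intervals apart, 4 of the 12 were higher in replicate 1 and 2 in replicate 3, and for 6 the intervals overlapped. The 4 came from the pairs described above, and the 2 were the first 2 transcripts. A tag in replicate 1 defined the 12, and noCre tags chose the set, so these counts are not a test. The 4 had only 6 to 8 tags each in replicate 1, and the same count was not made over other transcripts.

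The other 16 had no tag in replicates 1 and 2, so that all of their noCre tags lay in replicate 3. They ranked 69 to 1652 in the Cre-positive libraries, at 107 to 1085 CPM, and their ratio ran from 1.42 to 46.2 with a median of 4.99. A count of 0 in replicate 1 allows up to 3382 CPM (3 tags of 887), a limit for counting error only that lies above the Cre-positive mean of each of the 16. Replicate 1 was therefore too shallow to place these transcripts against their Cre-positive means. For 3 of the 16 the replicate 3 share lay above this limit. These were ENSMUST00000083011, at 5759 CPM (4082 to 8118), and the identical pair, at 3959 each (2616 to 5987). Their absence from replicate 1 is how the 16 were defined, and their tags in replicate 3 are how they entered the set.

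**Figure D2:**
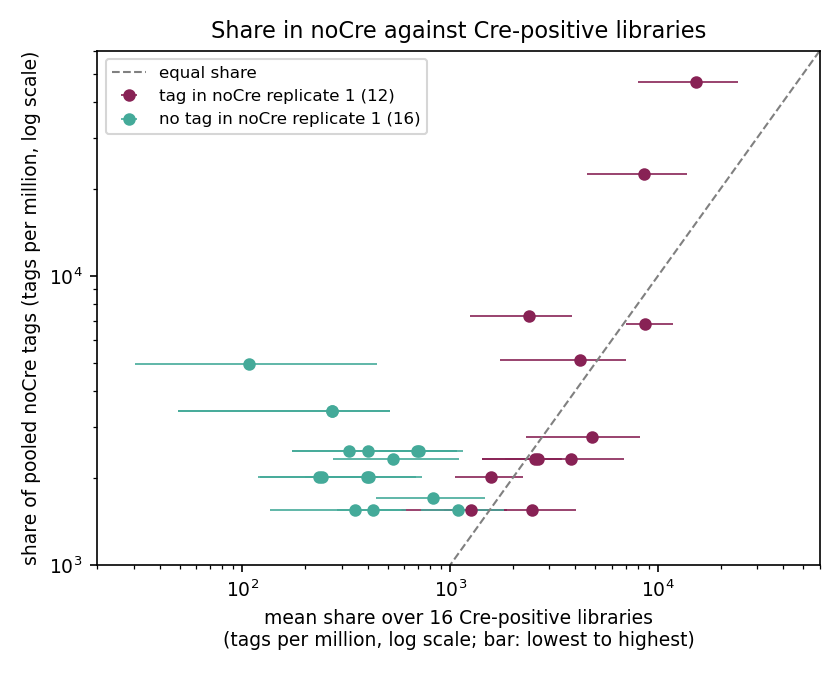
Share of pooled noCre tags against the mean share over 16 Cre-positive libraries for the 28 transcripts, both in CPM on log scales. Horizontal bars run from the lowest to the highest Cre-positive library, and the dashed line marks equal shares. The 12 transcripts with a tag in noCre replicate 1 lie to the right around the line, with ratios of 0.575 to 3.07, and the other 16 lie above it, with ratios of 1.42 to 46.2.

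A pooled noCre share above the mean Cre-positive share was found for 22 of the 28 members, where 87.5% of the 3612 transcripts with a noCre tag had one. For 18 members it lay above the highest Cre-positive library, where 73.7% of the 3612 did. At 6478 pooled tags 1 tag is already a high share, so these counts do not set the members apart. The 6 members below their Cre-positive mean all had a tag in replicate 1.

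Values just inside and just outside the threshold overlapped. The 5 members with exactly 10 noCre tags had mean Cre-positive shares of 347 to 2477 CPM. The 12 transcripts with exactly 9 tags, outside the set, ran from 38.6 to 2097. Of these, 2 of the 5 and 4 of the 12 had a tag in noCre replicate 1.

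All 28 members had tags in all 16 Cre-positive libraries, 10 of them were among the 20 transcripts with the highest mean share, and 14 among the 100 highest. How far their tags followed library depth varied. Totals differed 16.7-fold between the shallowest and the deepest Cre-positive library. The members' own tags differed from 5.93-fold (ENSMUST00000038863) to 49.3-fold (ENSMUST00000035208, named after its values were seen), with a median of 12.6. A fold range below that of the totals was found for 20 of the 28 members, against 25.3% of the 2155 tested transcripts with no library at 0, whose median was 25.0. Counting error widens the range of transcripts with few tags, and abundance was not held equal in this comparison.

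**Figure D3:**
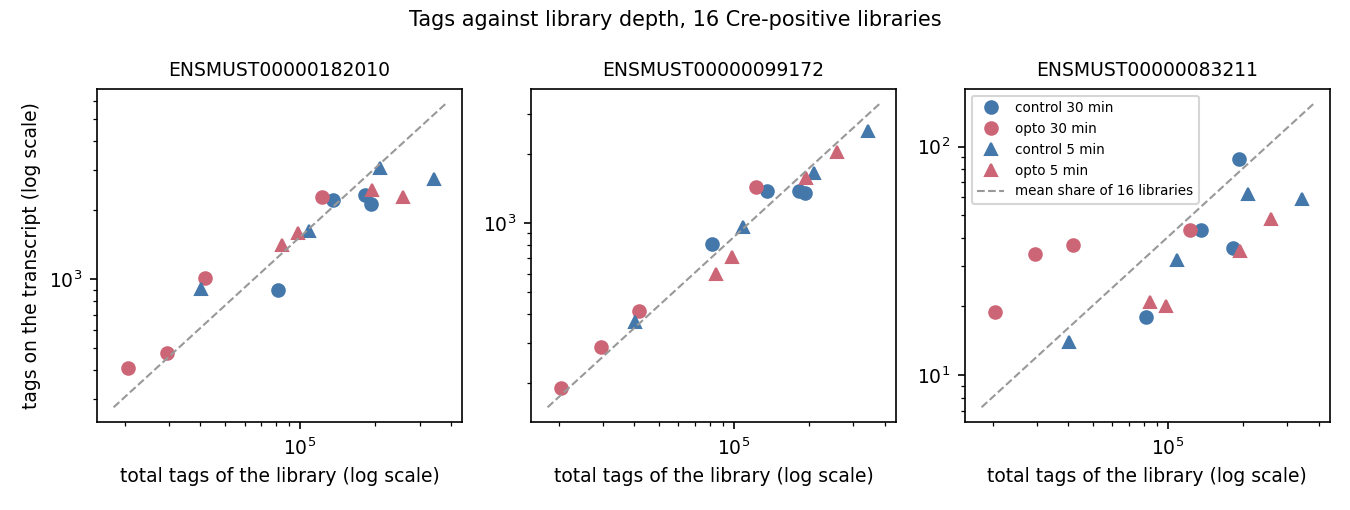
Tags on 3 of the transcripts against total tags of the library, both on log scales, for the 16 Cre-positive libraries. The dashed line is the tags expected at the transcript's mean share. ENSMUST00000099172 stays near the line from 191 to 2528 tags, ENSMUST00000182010 spans 408 to 3068 tags, and ENSMUST00000083211 spans 14 to 88.

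ENSMUST00000083211 had a narrow range of tags, 6.29-fold, over these libraries. Its tags were 18, 88, 43 and 36 in the 30 min controls, 19, 34, 43 and 37 in 30 min opto, 59, 14, 32 and 62 in the 5 min controls and 48, 20, 35 and 21 in 5 min opto. The 30 min opto counts were thus as high as those of much deeper libraries. In CPM this gave 221, 457, 317 and 199 in the 30 min controls and 929, 1157, 353 and 887 in 30 min opto. At 5 min it gave 173, 348, 294 and 297 in the controls and 187, 204, 180 and 248 in opto. The 30 min opto libraries were the highest of the 16 except for replicate 3, the deepest of that group, which lay inside the range of the controls.

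Activation was then compared over the Cre-positive libraries, whose tags the threshold on noCre tags did not use. The members, with the identifiers left out, were chosen with earlier results of these data known. The choice may therefore not be independent of these comparisons. Transcripts were tested with edgeR's quasi-likelihood test with Benjamini-Hochberg adjustment over 2871 transcripts, in 1 fit of 16 libraries. All 28 members passed the filter on low counts. This main fit did not pair libraries. The replicate block given below as an alternative paired same-numbered opto and control libraries of a time. In opto against control at 30 min, none of the members passed an adjusted p of 0.05, and 0.0348% of all tested transcripts did (1 transcript, not a member). DESeq2 and limma voom also called 0 members. Their shares over all tested transcripts were counted only for opto between times, so their 0 in the other comparisons has no share beside it. At an unadjusted p under 0.05, 9 members were higher in opto, where 2.93% of all tested were, and 1 was lower, where 5.47% were. These 9 include the identical pair and the first 2 transcripts. Here and in the counts below both members of a pair are counted, so the counts are not of independent changes. The fold change was above 0 for 19 members, against 47.7% of all. The median log2 fold change of the members was 0.29, against -0.02 for all tested transcripts. With no filter on low counts the scaling moved and these medians became -0.041 and -0.30, so that the sign for the members turned while their distance from the other transcripts was 0.31 with the filter and 0.26 without.

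The less abundant and the more abundant members were also described apart at 30 min, with no test of a difference between them. The 16 without a tag in noCre replicate 1 had a median log2 fold change of 0.52 and held 0.929% ± 0.0932 of tags in 30 min opto, from 0.830% to 1.05%, against 0.700% ± 0.110 in the controls, from 0.567% to 0.791% (SD, n = 4). The 12 with such a tag had a median of -0.0047, and held 6.89% ± 0.275 in opto, from 6.63% to 7.27%, and 5.68% ± 0.606 in the controls, from 5.23% to 6.53%, of which the first 2 transcripts held 3.04% and 2.00%. Opto and control ranges overlapped for neither set. The first 2 differed by log2 0.61 (SE 0.26, adjusted p = 0.590) for ENSMUST00000182010 and 0.56 (SE 0.26, adjusted p = 0.590) for ENSMUST00000192717, and neither passed the edgeR test. Both, like some other members, were higher in opto in 4 of 4 same-numbered pairs, a count not made over all tested transcripts. With the replicate block in edgeR the adjusted p of the first 2 was 0.0580 and 0.0905. With that block 12 members were higher at an unadjusted p under 0.05, where 3.97% of all tested were. With the log2 library total as a covariate the median of the 28 was 0.16, that of the 16 was 0.27 and that of the 12 was -0.03. In that fit 2 members were higher and 2 lower at an unadjusted p under 0.05, where 1.36% and 3.55% of all tested were.

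The smallest p-values at 30 min belonged to ENSMUST00000083211 and ENSMUST00000174924. ENSMUST00000083211 averaged 831 ± 340 CPM in opto and 299 ± 118 in controls (SD, n = 4), a log2 fold change of 1.28 (SE 0.31, adjusted p = 0.244 by edgeR). It was called with the replicate number as a block (log2 1.30, adjusted p = 0.00213, where 0.313% of all tested were called) and without opto replicate 3 (adjusted p = 0.0141, where 0.0329% of all tested were called). With depth as a covariate its value was 0.63 (adjusted p = 0.943). ENSMUST00000174924 stood at 244, 510, 328 and 431 CPM in opto and 49.0, 213, 266 and 116 in controls, from 4 to 41 tags a library, a log2 fold change of 1.13 (SE 0.36, adjusted p = 0.434 by edgeR). Its groups overlapped in 1 library of each.

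Shares of the 2 groups did not overlap for 2 members at 30 min, both named after their values were seen. ENSMUST00000019514 stood at 442 to 587 CPM in opto and 135 to 319 in controls, where 1.43% of all tested transcripts were likewise higher without overlap. ENSMUST00000042296 stood at 440, 272, 443 and 407 in opto and at 1103, 509, 568 and 635 in controls, where 3.41% were lower without overlap. Its log2 fold change was -0.79 (SE 0.27, adjusted p = 0.500 by edgeR).

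At 5 min 0 members were called by edgeR, DESeq2 or limma voom, and 0% of all tested transcripts were called by edgeR. At an unadjusted p under 0.05, 0 members were higher or lower, where 0.975% and 0.871% of all tested were. With the replicate block 2 were higher and 0 lower, where 2.12% and 1.53% were. The median log2 fold change of the members was -0.03. The smallest p-values were those of ENSMUST00000172812, at 0.64 (SE 0.34, adjusted p = 1.00), and ENSMUST00000042296, at 0.43 (SE 0.23, adjusted p = 1.00). ENSMUST00000042296 stood at 615, 274, 422 and 373 CPM in the controls and 643, 621, 582 and 544 in opto, and only control replicate 1 reached the opto range. No member had groups without overlap at 5 min, where 0.871% of all tested transcripts were higher and 1.32% lower in that way.

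The difference between the responses at the 2 times was tested as an interaction. By edgeR, DESeq2 and limma voom alike 0 members were called, where edgeR called 0.0348% of all tested transcripts. At an unadjusted p under 0.05, 3 members had the larger response at 30 min, where 2.72% of all tested did, and 1 the smaller, where 4.88% did. The median was 0.35, against -0.02 over all, and with no filter the 2 were 0.041 and -0.29. ENSMUST00000083211 had a difference of log2 1.65 (SE 0.44, adjusted p = 0.331), which was called with the replicate block (1.60, adjusted p = 0.0135, where 0.174% of all were called). With that block 8 members had the larger response at 30 min and 2 the smaller at an unadjusted p under 0.05, where 4.21% and 5.61% of all did. ENSMUST00000042296 had a difference of -1.22 (SE 0.36, adjusted p = 0.331), from a value above 0 at 5 min and below 0 at 30 min.

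**Figure D4:**
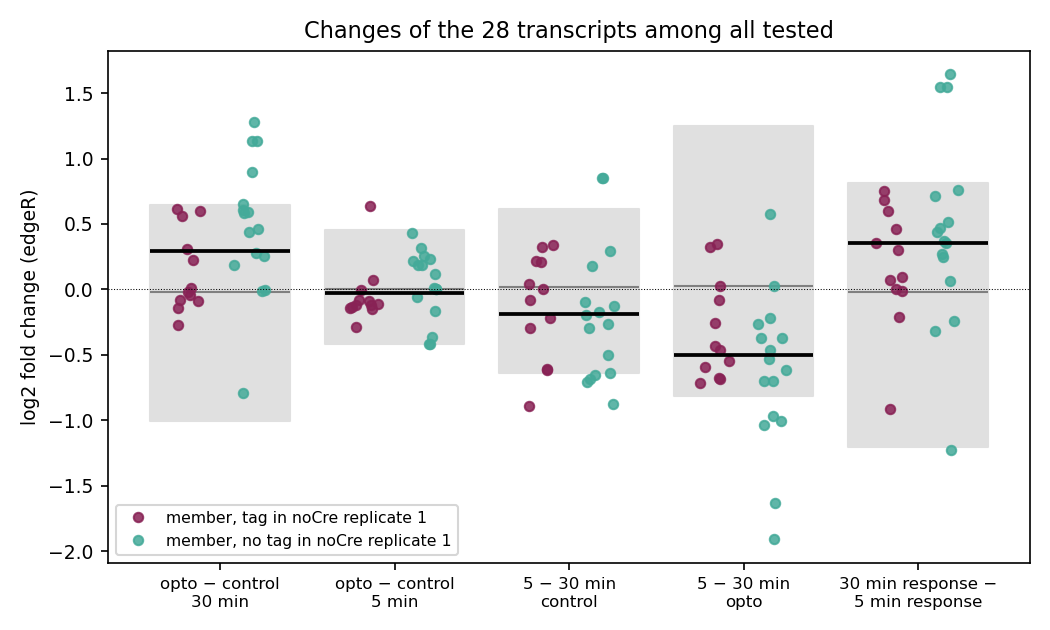
edgeR log2 fold changes of the 28 transcripts in 5 comparisons of the Cre-positive groups. Points are transcripts, coloured by whether noCre replicate 1 held a tag on them, black lines are their medians, grey lines the medians of all 2871 tested transcripts, and grey bands run from the 5th to the 95th percentile of all tested. The members' medians are 0.29, -0.03, -0.19, -0.50 and 0.35 from left to right.

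The 2 times were also compared within each virus, and these comparisons share their libraries with those above. In the controls, 5 min against 30 min, 0 members were called by edgeR, DESeq2 or limma voom, where edgeR called 0.174% of all tested transcripts. At an unadjusted p under 0.05, 2 members were higher at 5 min, where 3.9% of all were, and 8 lower, where 5.02% were. The median was -0.19, and -0.06 without 5 min control replicate 1, the deepest library. It was 0.11 for the 8 members with at least 20 noCre tags. ENSMUST00000042296 had a log2 fold change of -0.65 (SE 0.23, adjusted p = 0.331) and ENSMUST00000051301 one of -0.71 (SE 0.25, adjusted p = 0.332). ENSMUST00000051301 stood at 1017, 572, 1004 and 1253 CPM in the 30 min controls and 606, 946, 541 and 440 at 5 min. Groups did not overlap for ENSMUST00000110639, higher at 5 min (2753 to 3410 against 1863 to 2738), and ENSMUST00000172812, lower at 5 min (1907 to 4033 against 4634 to 6038), both singled out after their values were seen. Of all tested transcripts, 2.79% were higher and 2.72% lower without overlap.

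In opto, 5 min against 30 min, 1 member was called, ENSMUST00000083211, where 0.244% of all tested transcripts were called and 0.139% were called lower. It fell by 1.91 on the log2 scale (SE 0.33, adjusted p = 0.00627 by edgeR), from 831 ± 340 to 205 ± 30.6 CPM (SD, n = 4), and was lower in all 4 libraries at 5 min than in any at 30 min. The call was lost with depth as a covariate (log2 -1.24, adjusted p = 0.378), without 30 min opto replicate 4 (adjusted p = 0.0786) and without 5 min opto replicate 1 (adjusted p = 0.0722), in an adjusted p range of 3.91e-05 to 0.378 over 18 alternatives. More members were called, each lower at 5 min, with the replicate block (2, where 0.836% of all were called), by limma voom (5, where 3.27% were), without 5 min opto replicate 4 (4, where 1.66% were) and without 30 min opto replicate 3 (2, where 0.427% were). In this comparison the block grouped libraries by number across the 2 times, which were not treated as paired. DESeq2 called 2 of the 27 members it gave an adjusted p, where it called 4.57% of 700 such transcripts. Of the 4 libraries of 30 min opto, 3 were shallower than all 4 of 5 min opto. The part of depth in the difference was not tested beyond the depth covariate.

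None of the other 27 members passed, and their log2 fold change was below 0 for 22 and above 0 for 5. At an unadjusted p under 0.05, 12 of the 28 members were lower at 5 min, ENSMUST00000083211 among them, where 7.24% of all tested transcripts were. These 12 include both members of some of the pairs above. At the same limit 1 member was higher, where 9.72% were. The median was -0.50, against 0.02 over all, and with no filter the 2 were -0.19 and 0.31. With depth as a covariate it was -0.32, no member was called and 6 were lower at an unadjusted p under 0.05, where 4.21% of all were. Groups did not overlap for 4 members lower at 5 min, where 2.96% of all were. These included ENSMUST00000083211 and ENSMUST00000099172, the latter with 7079 to 8075 CPM at 5 min against 9337 to 11773 at 30 min. Groups did not overlap for 1 member higher at 5 min, ENSMUST00000042296 (544 to 643 against 272 to 443), where 5.4% of all were.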

How the data were processed

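The deposited files hold whole-number counts of FMRP CLIP tags per Ensembl transcript, per the file headers, with no normalization. They list only transcripts with at least 1 tag, so an unlisted transcript was taken as 0. The submitters' processing notes name cutadapt, STAR and mm10. Handling of duplicate reads, the annotation release and the assignment of tags shared by isoforms were not given in the sources used here and could change the counts.

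Levels were computed as CPM, tags per 1000000 tags of the library, and as percent for the whole set. The 95% Wilson intervals and the limit of 3 tags for a count of 0 cover counting error only. The 16 Cre-positive libraries were fitted with edgeR 4.0.16 in R 4.3.3 (TMM scaling, default filterByExpr with minimum count 10 and minimum total 15, quasi-likelihood test, Benjamini-Hochberg over 2871 transcripts, adjusted p under 0.05). The noCre libraries stayed out of the fit. The SE given with edgeR fold changes was worked back from the test. It is the absolute log2 fold change divided by the square root of the F statistic. The biological coefficient of variation was 0.192. On simulated data for opto against control at 30 min, 200 of 2871 transcripts were changed by a log2 size of 2. Of these 91.8% were recovered, and 5.32% of calls were false. The simulation gave all transcripts the same coefficient of variation. Its size lay above the highest log2 fold change of a member at 30 min, 1.28. How often changes of the members' size would be called was not tested.

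Alternatives were DESeq2 1.42.0 and its size factors, library totals, limma 3.58.1 voom with quality weights, 2 other filters, the libraries of a contrast alone, a replicate block, depth as a covariate, thinned counts, identical transcripts kept once, other member rules, and leaving out each library. Same-numbered opto and control libraries deviated together over 334 transcripts averaging 50 tags or more (correlations 0.201 to 0.467 at 30 min and 0.382 to 0.687 at 5 min). Over all 2871 these correlations ran from -0.00166 to 0.178 and from 0.0130 to 0.290. On this check of the data the replicate block paired same-numbered opto and control libraries of a time. The main fit had no block, so its p-values do not use the pairing. Controls of the 2 times (-0.390 to 0.299) and opto of the 2 times (-0.219 to 0.256) were of mixed sign and not treated as paired. In comparisons between times the replicate block still grouped libraries by number across times, and is given as an alternative only.

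Members named were the 6 with the most noCre tags, the 2 highest and 2 lowest ratios of noCre to Cre-positive share, and, for each contrast, up to 2 called in each direction or else the 2 with the smallest p. The members and lists were chosen with earlier results of these data known. Gene lists, including cell type markers, were not analysed here because no table used pairs these identifiers with genes. Tables and plots used Python 3.11.15, scipy 1.17.1, numpy 2.4.6, pandas 2.3.3 and matplotlib 3.10.9.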

Additional observations from a re-analysis of the deposited data

How the results depend on the processing

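Depth limits the noCre values: replicate 2 held 34 tags and was not read on its own. The member share moved with the rule that chose the members: with at least 5 noCre tags (147 transcripts) it was 26.0% in noCre, 15.5% and 17.05% in control and opto at 30 min, and 14.6% and 14.0% at 5 min; with at least 20 (8 transcripts) it was 3.64%, 4.91%, 3.76% and 3.60% in the Cre-positive groups in this order; with at least 10 in replicate 3 alone (23 transcripts) it was 5.06%, 6.49%, 4.86% and 4.71%. Without mitochondrial tags in the denominator the 30 min opto share was 8.15%. Leaving out a library in turn gave 7.49% to 15.2% in noCre, 6.07% to 6.57% and 7.68% to 7.93% in control and opto at 30 min, and 5.62% to 6.61% and 5.69% to 6.13% at 5 min. The median log2 fold change at 30 min was -0.041 with no filter on low counts and 0.60 for the 8, the interaction median 0.041 and 0.72, the control median 0.11 for the 8, and the opto median between times -0.19 with no filter. Leaving out a library gave medians of 0.21 to 0.40 at 30 min, -0.07 to 0.09 at 5 min, 0.19 to 0.42 for the interaction, -0.24 to -0.06 for controls and -0.56 to -0.36 for opto. ENSMUST00000038863 reversed to -0.043 at 30 min with depth as a covariate. Called members with the replicate block numbered 1 at 30 min, 1 in the interaction and 2 between opto times, and the block changed no other count of called members. Between opto times 0 were called with depth as a covariate, 0 after thinning (20 members tested) and 0 for the 8, though ENSMUST00000083211 was in neither of the last 2 sets; 2 by DESeq2 and 5 by limma voom. Leaving out a library gave 0 to 1 called at 30 min (1 without opto replicate 3), 0 to 4 between opto times (4 without 5 min replicate 4, 2 without 30 min replicate 3, 0 without 30 min replicate 4 or 5 min replicate 1), and 0 elsewhere. Fits of a contrast's libraries alone were not run for the interaction, which uses all of them.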
